A study of Mus musculus with 6 samples.

Results

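The nuclear genes of respiratory complex I were examined in glomeruli, the filtering units of the kidney, from mice with diabetic kidney disease. Of 18822 genes with values, 39 had a mouse symbol that starts with Ndufa, Ndufb, Ndufc, Ndufs or Ndufv followed by a digit, and these 39 are the members described here. The RefSeq table held 44 such symbols, and Ndufb1, Ndufa11b, Ndufa12-ps, Ndufs5-ps and Ndufs6b were not analysed here. Polyadenylated RNA was sequenced in 3 libraries of PR3_KO mice, which carry a knockout of proteinase 3, a serine protease of neutrophil granules, and in 3 libraries of WT mice. Both genotypes were C57BL/6J and both had diabetic kidney disease, so no library came from a healthy kidney. The sources used here do not give how diabetes was brought about, the age and sex of the mice, the knockout allele or how glomeruli were isolated. Whether each library is its own mouse is not labelled, and a p-value here reflects the scatter among these libraries, which could be technical.

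Complex I, the NADH:ubiquinone oxidoreductase, takes electrons from NADH, passes them along a flavin and a chain of iron-sulfur clusters to ubiquinone, and pumps protons across the inner mitochondrial membrane. Its hydrophilic arm reaches into the matrix and holds the redox centres, and its membrane arm holds the proton pumps. Core subunits carry out the chemistry, and supernumerary subunits surround them and stabilise the enzyme. The core subunits of the membrane arm are encoded by mitochondrial DNA and are not analysed here. In the kidney the proximal tubule, next to the glomerulus, is rich in mitochondria and depends on oxidative phosphorylation for sodium reabsorption.

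Transcripts of part of complex I were more abundant in PR3_KO glomeruli. As deposited, 14 of the 38 tested members rose and 0 fell (limma, adjusted p under 0.05), a share of 36.8% against 11.7% of all 12388 tested genes that rose and 41.1% that fell. The median log2 fold change of the members was 0.29, against -0.26 over all tested genes, and was 0.62 with median-of-ratios scaling and 0.13 with equal FPKM sums. As deposited no member reached an absolute log2 fold change of 1. Of the 38, 35 have a place in complex I below. Ndufa4, which counts among the 14, carries a complex I name, but its protein is now placed in complex IV. Values are FPKM, which is read fragments corrected for how long a transcript is and how large the library is, with mean ± SD over 3 libraries per genotype, and fold changes are log2(FPKM + 1) of PR3_KO minus WT. A member was tested where its mean was at least 1 FPKM.

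The call of a rise depended on single libraries. Without PR3_KO 1, 3 members rose, a share of 7.89%, close to the 7.35% of all genes in that fit. Without PR3_KO 3, 8 rose, a share of 21.1%, against 7.51% of all genes. Without WT 2, 13 rose, a share of 34.2% against 10.5% of all genes, and 1 fell. The members' median then dropped to 0.13. Each of these fits has 5 libraries, and the medians without PR3_KO 1 and without PR3_KO 3 were 0.27 and 0.33.

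Library WT 2 stood apart. It was the lowest of the 6 libraries for 37 of the 38 tested members, and PR3_KO 1 was the highest for 28. The summed FPKM of the tested members was 10889, 9673 and 9953 in PR3_KO 1, 2 and 3, against 8407, 6191 and 8840 in WT 1, 2 and 3. The median within-genotype SD of a member on the log2 scale was 0.10 in PR3_KO and 0.27 in WT, and 0.081 between WT 1 and WT 3 alone. Over all genes the Spearman correlation of PR3_KO libraries with each other was 0.986 to 0.988, that of WT libraries 0.967 to 0.988, and that across genotypes 0.882 to 0.961. The targeted gene, Prtn3, had 0.14, 0 and 0.07 FPKM in the PR3_KO libraries and 0.46, 0.21 and 0.22 FPKM in the WT libraries, too low for a firm check of the labels.

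**Figure D1:**
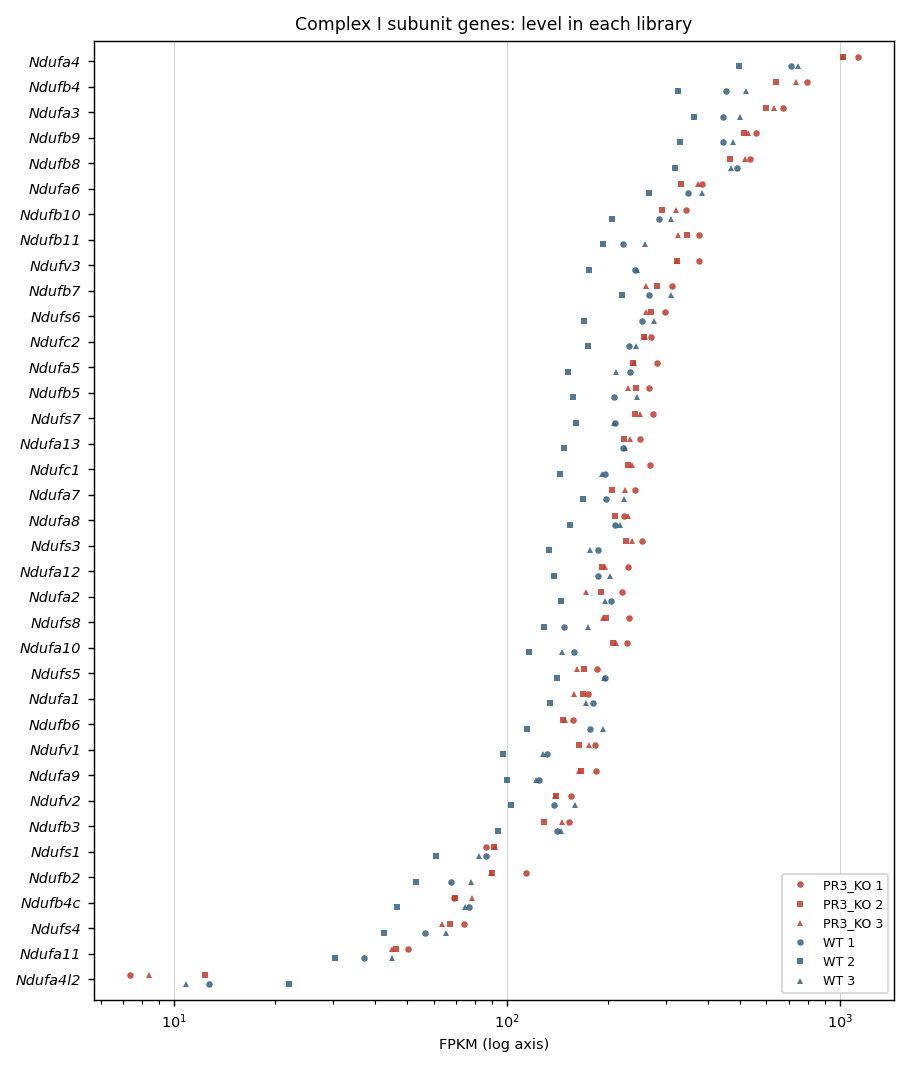
FPKM of 37 tested complex I genes on a log axis, one row per gene ordered by mean level, with PR3_KO libraries in red above WT libraries in blue and the marker shape giving the library number. WT 2 (blue squares) is the lowest library in 36 rows, and Ndufa4l2 is the row where it is the highest.

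All 38 tested members lay above the median tested gene in abundance. Their mean FPKM had a median of 209, against 10.9 for all tested genes, and ran over a 69.5-fold range. Ndufa4, Ndufb4 and Ndufa3 were the most abundant, at means of 853, 579 and 536 FPKM over the 6 libraries, and Ndufa4l2, Ndufa11 and Ndufs4 the least, at 12.3, 42.3 and 61.6 FPKM. The order of levels was alike in both genotypes, with a Spearman correlation of 0.959 between mean PR3_KO and mean WT levels across the 38 genes, which share libraries and lengths. Ndufb4b, the member that was not tested, was listed at 0.68, 0.99 and 0 FPKM in PR3_KO and at 0, 1.01 and 0 FPKM in WT (p = 1, two-sided exact permutation test, where 3 against 3 libraries cannot go below 0.1). The members lay on 15 chromosomes, Ndufa1 and Ndufb11 on the X.

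The 7 core subunits of the hydrophilic arm had a median log2 fold change of 0.47, against -0.26 over all tested genes. Of these 7, 5 rose, or 71.4% against 11.7% of all genes, and 0 fell. These calls were not firm: 0 of the 7 rose without PR3_KO 1, 2 without PR3_KO 2, 1 without PR3_KO 3, 4 without any single WT library and 2 with equal FPKM sums. Over all genes 7.35% rose without PR3_KO 1, 7.51% without PR3_KO 3, 10.5% without WT 2 and 7.2% with equal FPKM sums. The core median without WT 2 was 0.34, against -0.21 over all genes. Ndufv1, the flavoprotein subunit that binds NADH, was at 182.92, 164.12 and 175.63 FPKM in PR3_KO and at 131.46, 96.71 and 128.21 FPKM in WT. Its groups did not overlap, and it rose by 0.56 (SE 0.15, limma adjusted p = 0.0140). It lies on chromosome 19 from 4007499 to 4012755 (GRCm38.p6). Its call was lost without PR3_KO 1 (limma adjusted p = 0.0523).

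Ndufs3, a structural core subunit near the ubiquinone site, was at 254.4, 226.9 and 237.02 FPKM in PR3_KO and at 187.8, 133.67 and 177.58 FPKM in WT, a rise of 0.54 (SE 0.15, limma adjusted p = 0.0202). Its groups did not overlap, and its call was lost without PR3_KO 1 or PR3_KO 3 (limma adjusted p up to 0.0720).

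Ndufs7 carries the last iron-sulfur cluster before ubiquinone. It was at 273.35, 241.04 and 250.42 FPKM in PR3_KO and at 209.89, 160.51 and 209.68 FPKM in WT, a rise of 0.41 (SE 0.14, limma adjusted p = 0.0446). Ndufs8, which carries iron-sulfur clusters upstream of it, was at 232.69, 198.32 and 194.15 FPKM in PR3_KO and at 148.03, 128.83 and 174.68 FPKM in WT, a rise of 0.47 (SE 0.15, limma adjusted p = 0.0287). Both had no overlap between genotypes, but these were the least firm calls of the core. Ndufs7 kept its call without WT 1 and lost it without any other library (limma adjusted p up to 0.141), and Ndufs8 kept its call without WT 2 or WT 3 and lost it without any other library (up to 0.104).

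The remaining core genes, both for iron-sulfur subunits of the electron input end, did not pass. Ndufs1 was at 86.38, 91.12 and 91.79 FPKM in PR3_KO and at 86.33, 60.97 and 82.19 FPKM in WT (log2 fold change 0.24, SE 0.15, limma adjusted p = 0.187), with PR3_KO 1 and WT 1 almost level. Ndufv2 was at 155.79, 140.31 and 138.86 FPKM in PR3_KO and at 137.78, 102.54 and 159.43 FPKM in WT, with WT 3 above every PR3_KO library. Its log2 fold change was 0.14 (SE 0.17, limma adjusted p = 0.497), and -0.02 with equal library sums. The interval of Ndufv2, -0.25 to 0.54 at the 95% level, holds the median change of the core.

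A pair of members can be set against each other inside a library, where scaling between libraries cancels. Ndufv1 and Ndufv2 encode neighbouring subunits of the electron input end. The ratio of their FPKM was 1.17, 1.17 and 1.26 in PR3_KO 1, 2 and 3 and 0.954, 0.943 and 0.804 in WT 1, 2 and 3. The ratio of WT 2 lay between those of the other WT libraries, and the groups did not overlap. This pair was chosen after its values were seen and has no test.

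The hydrophilic arm has 9 supernumerary members, of which 2 rose, or 22.2% against 11.7% of all genes, and 0 fell. Their median log2 fold change was 0.27, and 0.089 without WT 2. Without PR3_KO 1, 1 of the 9 rose, in a fit where 7.35% of all genes rose. Ndufa9, a dehydrogenase-like subunit where the arms meet, was at 184.44, 166.5 and 164.52 FPKM in PR3_KO and at 124.86, 99.71 and 122.26 FPKM in WT. It had the smallest adjusted p of all members, with a rise of 0.57 (SE 0.13, limma adjusted p = 0.00814), and lies on chromosome 6 from 126821863 to 126849144. Ndufv3, a small subunit beside the flavoprotein, was at 375.37, 324.2 and 323.29 FPKM in PR3_KO and at 241.54, 176.14 and 245.23 FPKM in WT, a rise of 0.64 (SE 0.16, limma adjusted p = 0.0130). Leaving out PR3_KO 1 ended the call of Ndufv3 (limma adjusted p = 0.0526).

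Ndufs4, whose loss causes a mitochondrial encephalopathy in mice, was at 74.29, 67.1 and 63.66 FPKM in PR3_KO and at 56.63, 42.63 and 65.39 FPKM in WT (log2 fold change 0.33, SE 0.16, limma adjusted p = 0.116). WT 3 lay above PR3_KO 3. The other 6 of this group, Ndufa2, Ndufa5, Ndufa6, Ndufa7, Ndufa12 and Ndufs6, did not pass and ran from 0.11 to 0.36.

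Of the 9 proximal membrane arm members, 3 rose, or 33.3% against 11.7% of all genes, and 0 fell. Their median was 0.29, and 0.15 without WT 2. Without PR3_KO 1 or PR3_KO 3, 1 of them rose, and without PR3_KO 2, 2 rose. Over all genes 7.35% rose without PR3_KO 1, 7.51% without PR3_KO 3 and 1098 of 12445 without PR3_KO 2. Ndufa10, a kinase-like subunit on the matrix face, was at 228.37, 208.05 and 211.44 FPKM in PR3_KO and at 159.01, 115.74 and 145.65 FPKM in WT, a rise of 0.63 (SE 0.14, limma adjusted p = 0.00834). It lies on chromosome 1 from 92439486 to 92473825. Ndufa3, a short membrane-spanning subunit, was at 673.82, 598.7 and 634.12 FPKM in PR3_KO and at 443.89, 364.56 and 499.12 FPKM in WT, a rise of 0.55 (SE 0.15, limma adjusted p = 0.0176). Ndufc1, another small membrane subunit, rose by 0.47 (limma adjusted p = 0.0342). Ndufa3 lost its call without PR3_KO 1 or PR3_KO 3 (limma adjusted p up to 0.0680), and Ndufc1 without any PR3_KO library (up to 0.116).

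Members of the same arm did not all move. Ndufs5, a subunit on the intermembrane side, was at 185.54, 170.1 and 161.41 FPKM in PR3_KO and at 195.82, 141.12 and 195.27 FPKM in WT (log2 fold change -0.03, SE 0.16, limma adjusted p = 0.891). Ndufa1, a small subunit encoded on the X chromosome, was at 174.53, 168.45 and 158.14 FPKM in PR3_KO and at 180.26, 133.87 and 172.3 FPKM in WT (log2 fold change 0.05, limma adjusted p = 0.764). Ndufa11, which holds a membrane-spanning fold near the middle of the complex, was at 50.28, 46.14 and 45 FPKM in PR3_KO and at 37.13, 30.43 and 44.92 FPKM in WT (log2 fold change 0.34, SE 0.14, limma adjusted p = 0.0796). All PR3_KO libraries of Ndufa11 were above WT, but PR3_KO 3 and WT 3 were nearly equal. Ndufa8, Ndufa13 and Ndufc2 were at log2 fold changes of 0.20, 0.28 and 0.29 and did not pass.

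Of the 10 distal membrane arm members, 3 rose, or 30% against 11.7% of all genes, and 0 fell. Their median was 0.28, and 0.11 without WT 2. Without PR3_KO 1, 1 of the 10 rose, in a fit where 7.35% of all genes rose. Ndufb11, a subunit encoded on the X chromosome from 20615326 to 20617619, was at 376.31, 345.58 and 324.85 FPKM in PR3_KO and at 222.96, 193.14 and 259.71 FPKM in WT. It rose by 0.64 (SE 0.15, limma adjusted p = 0.00843). Ndufb2 rose by 0.57 (SE 0.17, limma adjusted p = 0.0227), and lost its call without PR3_KO 1 (limma adjusted p = 0.0798). Together with Ndufa9 and Ndufa10, Ndufb11 made up the 3 members that passed in all 6 fits with 1 library left out, with a highest limma adjusted p of 0.0359, 0.0353 and 0.0374 for Ndufa9, Ndufa10 and Ndufb11.

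Ndufb4, a membrane arm subunit, had the largest log2 fold change of the tested members, and its value is uncertain. It was at 793.25, 642.12 and 736.29 FPKM in PR3_KO and at 454.95, 326.27 and 520.28 FPKM in WT, a difference of 0.76 (SE 0.19, limma adjusted p = 0.0132) that did not pass without PR3_KO 1 (limma adjusted p = 0.0518). Its copy Ndufb4c was at 69.13, 69.38 and 78.32 FPKM in PR3_KO and at 76.68, 46.46 and 74.44 FPKM in WT (log2 fold change 0.16, limma adjusted p = 0.486). All 390 bases of the annotated Ndufb4c transcript match the Ndufb4 transcript (GENCODE M21), so their reads can be split between them in ways the files do not show.

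Ndufb6, another subunit of the distal arm, was at 157.76, 146.99 and 148.52 FPKM in PR3_KO and at 176.53, 114.66 and 193.79 FPKM in WT (log2 fold change -0.06, SE 0.19, limma adjusted p = 0.798). WT 1 and WT 3 lay above all PR3_KO libraries and WT 2 below them. Without WT 2 it was the 1 member that fell (-0.29, limma adjusted p = 0.0428), and its sign turned (0.27) once libraries were scaled by the median of gene ratios. Ndufb3, Ndufb5, Ndufb7, Ndufb8, Ndufb9 and Ndufb10 did not pass, at log2 fold changes of 0.11 to 0.37.

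Ndufa4 and Ndufa4l2 carry complex I names, but the Ndufa4 protein is now placed in complex IV, and Ndufa4l2 is a paralog induced by hypoxia-inducible factor. Ndufa4 was at 1130.33, 1017 and 1017.5 FPKM in PR3_KO and at 711.18, 497.39 and 747.5 FPKM in WT. It rose by 0.71 (SE 0.18, limma adjusted p = 0.0130), with no overlap, and did not pass without PR3_KO 1 (limma adjusted p = 0.0517). Ndufa4l2 was at 7.36, 12.37 and 8.36 FPKM in PR3_KO and at 12.73, 22.01 and 10.86 FPKM in WT, the 1 tested member in which WT 2 was highest. Its groups overlapped (log2 fold change -0.61, SE 0.27, limma adjusted p = 0.0881). Ndufa4l2 shares 32 exonic bases with Shmt2, which had a mean of 123 FPKM, so its value is uncertain.

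**Figure D2:**
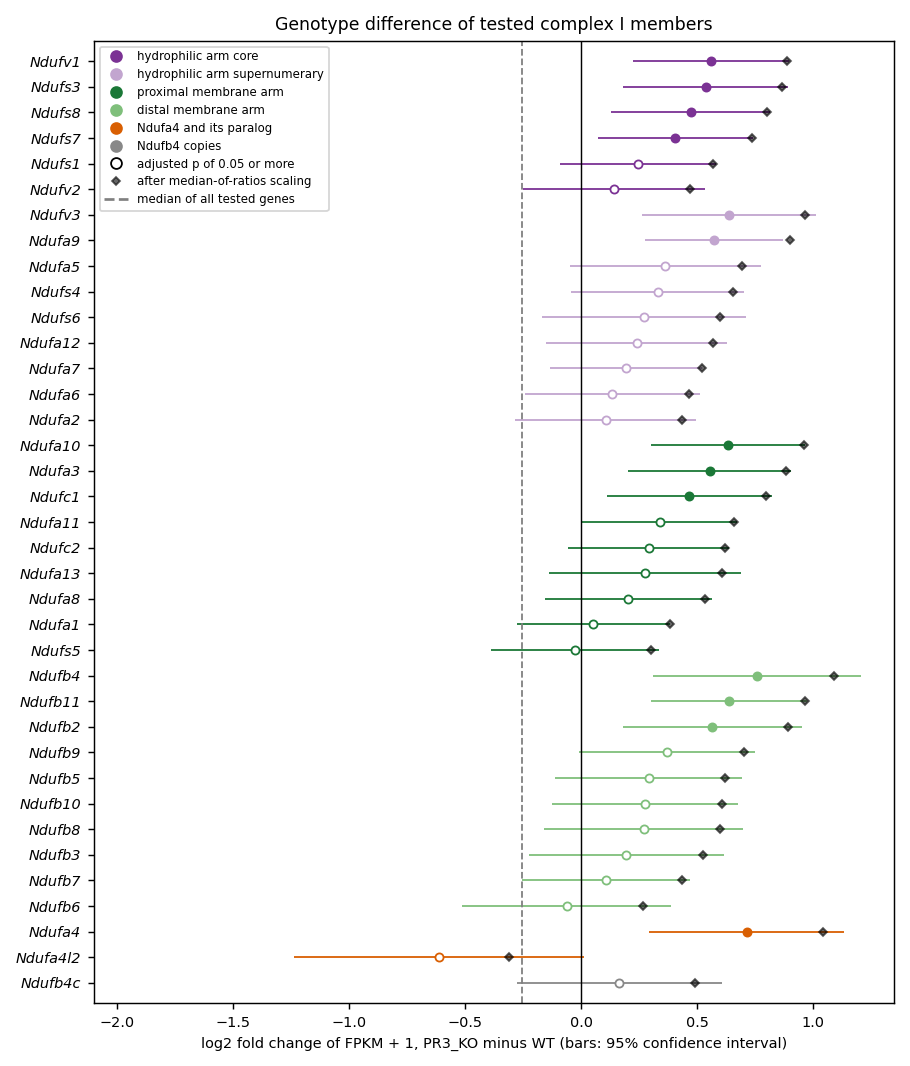
Log2 fold change of FPKM + 1, PR3_KO minus WT, of 37 tested members grouped by place in the complex, with 95% confidence intervals. Filled circles passed the limma threshold, black diamonds give the value after median-of-ratios scaling, and the dashed line marks the median of all tested genes at -0.26. The members other than Ndufa4l2 lie right of that line.

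In 19 of the 38 tested members every PR3_KO library was above every WT library, and in 0 every PR3_KO library was below. Over all tested genes this held for 16% and 49.1%. FPKM depends on the scaling between libraries, and the median of all genes moved to 0.03 when libraries were scaled by the median of gene ratios. On that scale 22 members rose, a share of 57.9%, and 0 fell, against 25.6% of all genes that rose and 22.2% that fell. The members' median was 0.62. PR3_KO then lay above WT in 35 of the 38 tested members, against 33.4% of all genes. Of the 8 members that gained a call, Ndufa11 (0.66, limma adjusted p = 0.0195), Ndufb9 (0.70, limma adjusted p = 0.0286), Ndufs4 (0.65, limma adjusted p = 0.0296) and Ndufc2 (0.62, limma adjusted p = 0.0315) had the strongest evidence. With libraries scaled to equal FPKM sums, 10 of the 14 still passed and no other member did. That is 26.3% of the tested members, against 7.2% of all genes. The members' median minus that of all genes was 0.55 as deposited, 0.59 with median-of-ratios scaling and 0.52 with equal sums. This difference depended on single libraries. It was 0.35 without WT 2, 0.38 with median-of-ratios scaling and without WT 2, and 0.69 without WT 3. As deposited 1454 of 12388 genes rose and 5091 fell, and with median-of-ratios scaling 3158 rose and 2744 fell.

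**Figure D3:**
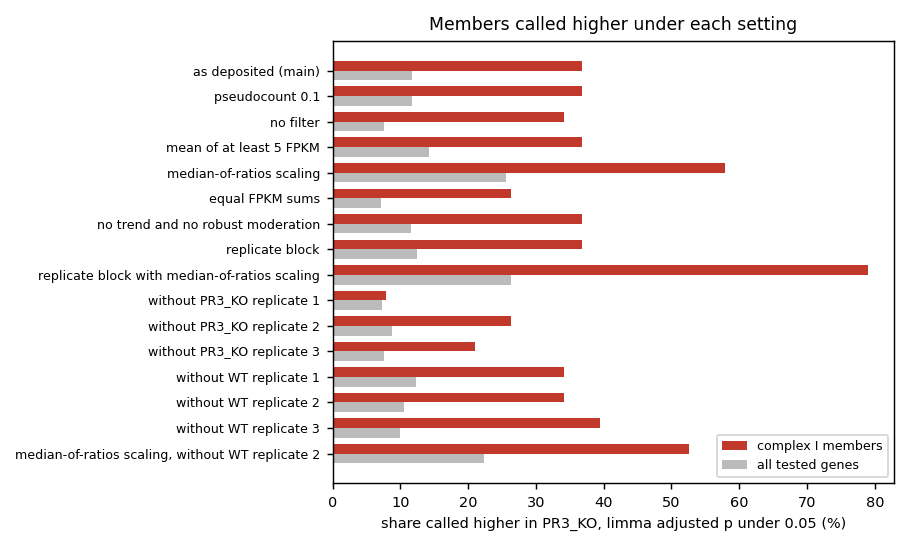
Share of the tested complex I members (red) and of all tested genes (grey) called higher in PR3_KO under each setting, in percent, from limma. The red bar is 36.8% as deposited, 57.9% with median-of-ratios scaling and 7.89% without PR3_KO 1, where the grey bar is 7.35%.

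Some nuclear subunits of the other respiratory complexes rose too, and no difference between complexes was tested. In complex II 3 of 4 subunits rose, in complex III 3 of 9, in complex IV 4 of 11 and in ATP synthase 4 of 15. In each 0 fell, and Ndufa4 is not counted in complex IV here. The shares that rose were 75%, 33.3%, 36.4% and 26.7%, against 11.7% of all genes. The median log2 fold changes of these complexes were 0.45, 0.41, 0.30 and 0.32 in that order, and 0.33, 0.22, 0.093 and 0.17 without WT 2. After median-of-ratios scaling 3, 6, 5 and 10 rose in the same order. Those shares were 75%, 66.7%, 45.5% and 66.7%, against 25.6% of all genes. Sdha, the flavoprotein of complex II, was at 272.28, 252.24 and 273.78 FPKM in PR3_KO and at 219.17, 172.58 and 190.78 FPKM in WT (0.46, limma adjusted p = 0.0195). Cox6a1, a subunit of cytochrome oxidase, was at 1624 ± 78.8 FPKM in PR3_KO and 936 ± 169 FPKM in WT (0.81, limma adjusted p = 0.00624). Atp5b, the catalytic beta subunit of ATP synthase, was at 1680 ± 38.1 FPKM in PR3_KO and 1074 ± 153 FPKM in WT (0.66, limma adjusted p = 0.00961).

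Assembly factors, build complex I but are not part of it. Of 18 tested, 5 rose, or 27.8% against 11.7% of all genes, and 0 fell, with a median of 0.11. After median-of-ratios scaling 10 rose, or 55.6% against 25.6% of all genes, and 0 fell. Without WT 2, 3 of the 18 rose and 1 fell, in a fit where 10.5% of all genes rose. Ecsit, a factor of the intermediate assembly complex, was at 65.3 ± 4.55 FPKM in PR3_KO and 42.5 ± 6.27 FPKM in WT (0.61, SE 0.13, limma adjusted p = 0.00635). Foxred1 and Dmac2 rose by 0.35 and 0.39 (limma adjusted p = 0.0169 and 0.0177), and Nubpl, an iron-sulfur cluster carrier, and Acad9 by 0.40 and 0.36. Ndufab1, the acyl carrier protein that is a subunit outside the naming rule, was at 308 ± 11.1 FPKM in PR3_KO and 226 ± 53.0 FPKM in WT (0.47, limma adjusted p = 0.0604).

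Regulators of nuclear mitochondrial genes changed sign with the scaling between libraries, their median being -0.16 as deposited and 0.12 with median-of-ratios scaling. Of 13 tested, 0 rose and 4 fell as deposited, or 30.8%, against 41.1% of all genes that fell. With median-of-ratios scaling 3 rose and 1 fell, or 23.1% and 7.69%, against 25.6% and 22.2% of all genes. Gabpa, the DNA-binding subunit of GABP, was at 7.56 ± 0.987 FPKM in PR3_KO and 12.2 ± 0.734 FPKM in WT (-0.62, limma adjusted p = 0.00324), and the median-of-ratios value was -0.33 (limma adjusted p = 0.0254). Gabpb1 and Yy1 fell by 0.52 and 0.50 (limma adjusted p = 0.00289 and 0.00285), and so did Nrf1, named after its values were seen, by 0.54 (limma adjusted p = 0.0123). Gabpb1, Yy1 and Nrf1 did not pass after median-of-ratios scaling. Tfb2m and Polrmt were among the 3 that rose on that scale, by 0.57 and 0.49 (limma adjusted p = 0.0125 and 0.0120). As deposited Tfb2m and Polrmt were at 0.26 and 0.20 and did not pass. Esrra and Tfam, at 0.05 and 0.07 as deposited, passed on neither scale. The coactivator gene Ppargc1a was at 7.55 ± 0.723 FPKM in PR3_KO and 8.53 ± 0.730 FPKM in WT (limma adjusted p = 0.252). Of 14 genes that stand for mitochondrial content, such as import channels, porins and citrate synthase, 1 rose and 0 fell. That share, 7.14%, was under the 11.7% of all genes that rose. Their median was 0.16, against -0.26 over all tested genes. Without WT 2 their median was -0.0023, against -0.21 over all genes. After median-of-ratios scaling 6 of these genes rose, or 42.9% against 25.6% of all genes. The gene called as deposited was the porin Vdac1 (0.54, limma adjusted p = 0.0423).

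Markers of some cell types moved with genotype in the same libraries. Of 20 proximal tubule markers 16 rose and 0 fell, or 80% against 11.7% of all genes, and their summed FPKM was 58276 to 74421 in PR3_KO and 11498 to 30530 in WT. Their mean log2(FPKM + 1) was 8.98, 8.90 and 9.02 in PR3_KO 1, 2 and 3 and 8.34, 7.57 and 8.03 in WT 1, 2 and 3, lowest in WT 2 as for complex I. Of 12 podocyte markers 0 rose and 5 fell, with sums of 408 to 650 FPKM in PR3_KO and 709 to 1168 FPKM in WT, highest in WT 2. That share, 41.7%, was near the 41.1% of all genes that fell. All 12 glomerular endothelium markers fell (sums of 1280 to 1871 FPKM in PR3_KO and 3181 to 3871 FPKM in WT), as did all 10 macrophage markers (248.5 to 326.5 FPKM in PR3_KO and 1008 to 3350 FPKM in WT). Of 8 mesangium markers 4 fell and 0 rose, with sums of 223 to 390 FPKM in PR3_KO and 500 to 765 FPKM in WT. Of 11 markers of the thick limb, distal tubule and collecting duct 5 fell and 0 rose, with sums of 826 to 1253 FPKM in PR3_KO and 1299 to 1667 FPKM in WT. The shares of mesangium and distal markers that fell, 50% and 45.5%, were also near 41.1%. Of 5 erythroid markers 0 passed, with sums of 694 to 2793 FPKM in PR3_KO and 1393 to 1735 FPKM in WT. After median-of-ratios scaling 17 proximal tubule markers rose, while 2 podocyte, 11 endothelium, 10 macrophage, 3 mesangium and 2 distal markers fell. Those podocyte, mesangium and distal shares were 16.7%, 37.5% and 18.2%, against 22.2% of all genes. No marker was at 0 in any library. The part of these cell types in the complex I values was not tested, and in bulk samples more cells of a type and more RNA per cell cannot be told apart.

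**Figure D4:**
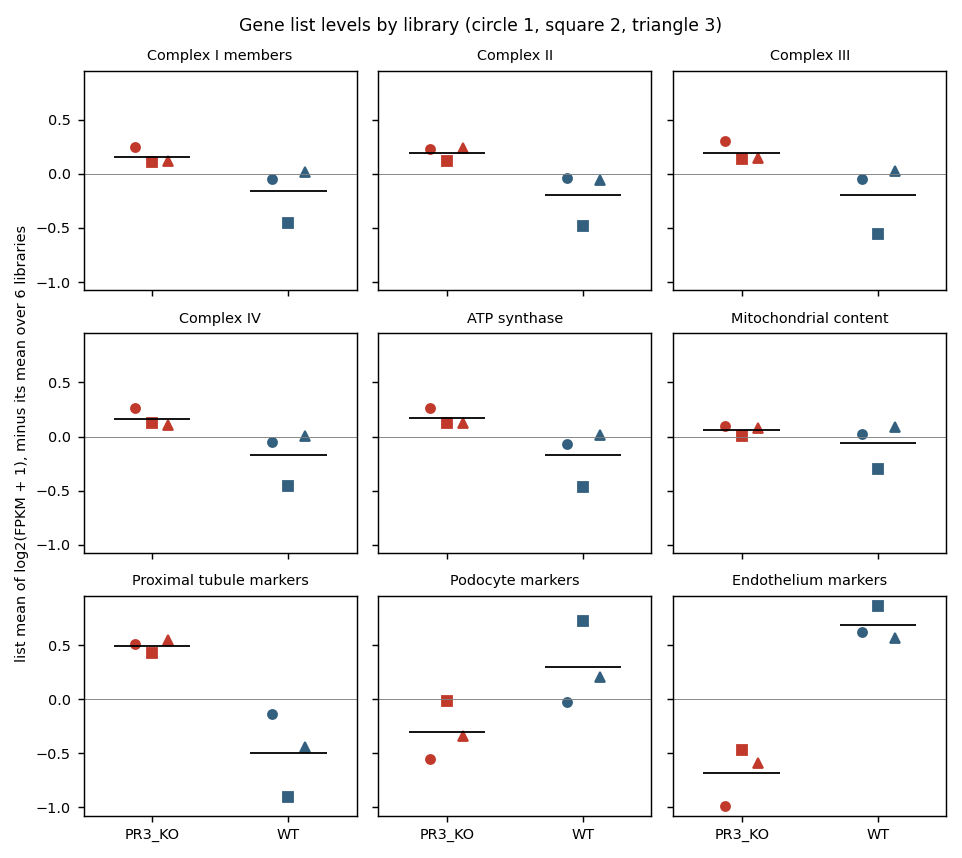
Mean log2(FPKM + 1) of each gene list by library, minus its mean over the 6 libraries, with PR3_KO (red) left of WT (blue), lines at genotype means, and circle, square and triangle for libraries 1, 2 and 3. Complex I, the other complexes and the proximal tubule markers are lowest in WT 2, where the podocyte and endothelium markers are highest.

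Promoter windows of the members are shown because their regulators were measured. RefSeq windows (GRCm38.p6) of 250 bases before to 50 after the start were found for 33 of 39 members, 35 windows in all. The NRF1 motif, searched as GCGCANGCG on both strands, was in 9 of the 35, or 25.7%, against 6.25% of all 32851 windows. It was in 1 of 13 windows of members that rose, that of Ndufb4, and in 8 of 22 of the others. The YY1 motif, AAGATGGCG, was in 5 windows (14.3%, against 1.40% of all), those of Ndufa9, Ndufc1, Ndufs4, Ndufs6 and Ndufs7, in each case after the start and spelling the letters of a start codon. The GABP motif CCGGAAGT was in 1 window, that of Ndufs3 (2.86% against 3.89%), the SP1 motif GGGCGG in 15 (42.9% against 35.7%), and the motif of oestrogen-related receptors, TCAAGGTCA, in 0 (against 0.423%). In the 13 windows of members that rose, YY1 was in 3, GABP in 1 and SP1 in 5. In the 22 windows of the others they were in 2, 0 and 10. A match is a description of letters, not a site of binding.

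Printed next are the windows with NRF1 matches of Ndufb4, the tested member with the largest fold change, of Ndufs5, which had the smallest absolute log2 fold change, and of Ndufa11, and the window of Ndufs3 with its GABP match at the start. Capitals mark the matches, Ndufb4 has 3 of them, the 2 in Ndufa11 overlap as a palindrome, and each stretch ends 30 bases after the start. They lie at chr16:37654339-37654588 on the minus strand for Ndufb4, chr4:123718157-123718306 on the minus strand for Ndufs5, chr17:56717642-56717791 on the plus strand for Ndufa11 and chr2:90904692-90904841 on the minus strand for Ndufs3.
Ndufb4: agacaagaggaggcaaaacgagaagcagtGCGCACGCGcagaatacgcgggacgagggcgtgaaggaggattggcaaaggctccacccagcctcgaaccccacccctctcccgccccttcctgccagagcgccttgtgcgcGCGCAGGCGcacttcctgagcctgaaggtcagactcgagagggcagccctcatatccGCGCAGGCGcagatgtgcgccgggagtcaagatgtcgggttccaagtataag
Ndufs5: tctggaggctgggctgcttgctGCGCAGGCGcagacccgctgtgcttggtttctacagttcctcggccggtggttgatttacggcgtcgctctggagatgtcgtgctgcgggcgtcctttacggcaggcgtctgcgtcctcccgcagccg
Ndufa11: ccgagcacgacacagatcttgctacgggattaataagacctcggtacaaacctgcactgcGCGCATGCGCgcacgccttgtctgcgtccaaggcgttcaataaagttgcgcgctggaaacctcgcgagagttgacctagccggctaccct
Ndufs3: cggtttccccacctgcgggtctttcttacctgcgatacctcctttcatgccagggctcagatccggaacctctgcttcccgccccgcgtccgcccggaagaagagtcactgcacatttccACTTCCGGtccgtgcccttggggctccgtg

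Strand use in counting is not given in the sources used here, so reads of overlapping genes cannot be told apart. Of the members that rose, Ndufb2 shares 146 exonic bases with Braf, 84 with the antisense gene Gm16272 and 145 with Gm42420 on its own strand, Ndufb11 117 with Rbm10, Ndufs3 85 with Kbtbd4, Ndufa9 67 with the antisense gene 1700018A23Rik and Ndufa3 4 with Tfpt (GENCODE M21). Of these neighbours, those with values were low beside the members, with means of 4.56 FPKM for Braf, 14.8 FPKM for Rbm10, 7.23 FPKM for Kbtbd4 and 11.4 FPKM for Tfpt. The genes 1700018A23Rik, Gm16272 and Gm42420 were not analysed here. Ndufa4l2, which did not rise, shares 32 exonic bases with Shmt2, and their means were 12.3 and 123 FPKM.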

How the data were processed

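RNA of 6 libraries was measured, 3 PR3_KO and 3 WT. The authors deposited FPKM, as the file headers name the unit, rounded to 2 decimals for 22064 gene IDs, 3242 of them empty in all files. Per the submitters' processing notes, Bowtie2 and the build GRCm38.p6 were used. The sources used here do not give versions, the quantifier, annotation, strand use or filters. IDs were matched to RefSeq symbols of GRCm38.p6, and 18770 of 18822 IDs with values matched.

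The members and lists were chosen with earlier results of these data known. Place in the complex follows textbook structure. The 12388 genes averaging 1 FPKM or more were fitted as log2(FPKM + 1) with limma 3.58.1 and statmod 1.5.0 in R 4.3.3, with genotype as the only term and trended, robust moderation. Benjamini-Hochberg adjustment covered every tested gene, with a threshold of 0.05. The fit was also run on simulated data, drawn with independent scatter for each gene. That check cannot speak to a shift shared by many genes of a library, as in WT 2. Values in every library were named for the core subunits (1 member is in the counts but its own values are not reported here), Ndufa4 and Ndufa4l2, the 8 rising members with the smallest adjusted p and the 3 most and least abundant members. Up to 4 members whose call changes with median-of-ratios scaling were named, and up to 3 of each other list. Ndufa1, Ndufs5, Ndufb6 and Ndufb4c fall outside that rule and were chosen after their values were seen. Nubpl, Acad9, Nrf1, Ppargc1a, Tfb2m, Polrmt, Esrra and Tfam also fall outside that rule. Promoters come from RefSeq. Tables were read with Python 3.11.15 and pandas 2.3.3.

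FPKM carries no counts. Among single-exon olfactory receptor genes of about 939 bases the commonest value above 0 was 0.07 or 0.08 FPKM, held by 3 to 7 genes a library. If that is 1 fragment, the depth is near 13300000 to 15300000 fragments, a rough figure.

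Alternatives were another pseudocount (0.1), no filter, a filter at 5 FPKM, median-of-ratios scaling, equal FPKM sums, no trend or robust moderation, the replicate number as a block, that block with median-of-ratios scaling, and each library left out in turn. Median-of-ratios scaling without WT 2 was added after seeing the data.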

Additional observations from a re-analysis of the deposited data

How the results depend on the processing

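The 14 members that rose kept a positive log2 fold change under every setting tried. The number of members that rose was 22 with median-of-ratios scaling (members' median 0.62), 20 with that scaling and without WT 2 (median 0.41), 10 with equal FPKM sums, 13 with no filter, and 14 with a pseudocount of 0.1, a filter at 5 FPKM or no trend and no robust moderation. The number of all genes that rose moved too, to 2740 of 12228 with that scaling and without WT 2, and 1374 of 18231 with no filter. It was 25.6% with median-of-ratios scaling and 7.2% with equal sums. With 1 library left out the number of members that rose ran from 3 to 15, the number that fell from 0 to 1, and the median from 0.13 to 0.41. The 3 came without PR3_KO 1, where 7.35% of all genes rose, and the 15 without WT 3, where 1230 of 12357 rose. Same-numbered libraries did not all deviate together (correlations of 0.068, 0.27 and -0.087 for numbers 1, 2 and 3). The labels name no pairing, and so few correlations cannot decide whether a pairing exists. With the replicate number as a block 14 rose and 1, Ndufa4l2, fell, and with the replicate block and median-of-ratios scaling 30 rose and 1 fell (median 0.62). Over all genes 1550 of 12388 rose and 5143 fell with the block. With the block and that scaling 3256 of 12351 rose and 2676 fell. The direction of uncalled members turned in some fits. With median-of-ratios scaling Ndufb6 was at 0.27 and Ndufs5 at 0.30, with the block or without it, and Ndufs5 at 0.10 without WT 2. With equal sums Ndufa1 was at -0.11, Ndufa2 was at -0.060, Ndufa6 was at -0.031, Ndufb7 was at -0.060, Ndufv2 was at -0.023. With 1 library left out, values ran for Ndufs5 from -0.18 to 0.051, Ndufb6 from -0.29 to 0.085, Ndufa1 from -0.078 to 0.14, Ndufa2 from -0.049 to 0.20, Ndufa6 from -0.017 to 0.25, Ndufb3 from -0.0046 to 0.31, Ndufb4c from -0.065 to 0.29, Ndufb7 from -0.018 to 0.22, Ndufv2 from -0.033 to 0.28. The cause of these changes was not tested. Depth is known only roughly, so no counting error can be given for a value.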
